A study of Mus musculus with 8 samples.

Results

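The acute-phase proteins examined here were 10 genes, Apcs, Crp, Saa1, Saa2, Saa3, Saa4, Hp, Orm1, Orm2 and Lcn2, of 35275 genes in the table. The genes were listed by name and selected on their genotype values in these same livers, to ask whether Apcs moved with or apart from the others. The genotype differences of the 10 genes are therefore given as a description, with no test. The acute-phase response is the change in plasma protein output that the liver makes during inflammation or injury. Interleukin-6 acting through STAT3, and interleukin-1 and TNF acting through NF-kB and C/EBP factors, drive hepatocytes to transcribe the positive acute-phase genes, while negative acute-phase proteins such as albumin and transthyretin decline. In mice the pentraxin serum amyloid P component, encoded by Apcs, is a major acute-phase protein, whereas C-reactive protein, the pentraxin used as a marker of inflammation in humans, responds weakly.

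RNA was measured in livers of 4 hepatocyte-specific pyruvate carboxylase knockout mice (Pcx L-/-) and 4 littermate controls (Pcx f/f, labelled WT), all C57BL/6 males aged 9 weeks and fasted for 24 h. Both genotypes carried the floxed Pcx allele, in which exon 10 is flanked by loxP sites, and the knockout also carried Albumin-Cre, which acts in hepatocytes. The livers therefore kept Pcx in their other cell types, and all the mice were fasted, so no fed or inflamed liver enters these comparisons. Read totals ranged from 12016242 to 20023108 a liver. Pcx, the deleted gene, was at 32.7 to 44.6 CPM in the knockouts and at 846.6 to 1300.0 CPM in the controls. CPM are normalised read counts, scaled to a common library size that was adjusted by the trimmed mean of M values (TMM), a method that centres the bulk of genes between libraries. Hepatocyte markers were high in every liver. Of the 8, 2 were called lower in edgeR, beside 27.6% called over all genes tested. At an unadjusted p under 0.05 in edgeR 6 were lower, and DESeq2 called 5 lower. Their summed level was 59858 to 93967 CPM in the knockouts against 108095 to 125065 CPM in the controls. Most of this sum was Alb, at 40660 to 60040 CPM in the knockouts and 67600 to 83640 CPM in the controls. In whole tissue, fewer cells of a type and less RNA per cell cannot be told apart. One library stood apart in its red blood cell RNA. Pcx L-/- replicate 1 had summed red blood cell markers of 4083 CPM, against 280 to 985 CPM in the other 7 libraries, with none of 5 tested markers called and none with an unadjusted p under 0.05 (0 of 5 in DESeq2), and results that rest on it are given with and without it.

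Apcs and Crp lie side by side on chromosome 1. In GENCODE M21 coordinates on GRCm38, Crp spans chr1:172698055-172833031 on the plus strand and Apcs spans chr1:172893961-172895041 on the minus strand, with 60.9 kb between them. The Saa genes occupy 42.3 kb of chromosome 7, from Saa3 (chr7:46711998-46715700) through Saa4 (chr7:46727998-46732603) and Saa1 (chr7:46740497-46742980) to Saa2 (chr7:46751790-46754313). Orm1 (chr4:63344560-63348163) and Orm2 (chr4:63362449-63365878) lie within 21.3 kb with Orm3 between them. Hp (chr8:109575128-109579172) and Lcn2 (chr2:32384633-32388252) stand alone. The 250 bases before the RefSeq start of the 2 pentraxins, of Saa1 and of Saa4 are shown in gene orientation (GRCm38.p6), because these genes span the highest and the lowest genotype values. Capitals mark every match on either strand to TTGCNNAA (C/EBP), TTCNNNGAA (STAT3), to the NF-kB motif (GGG and CC separated by 5 bases of any kind), TGACG (the CRE core) or TGATGNAA (the C/EBP-ATF site).
Apcs, chr1:172895055-172895304, minus strand: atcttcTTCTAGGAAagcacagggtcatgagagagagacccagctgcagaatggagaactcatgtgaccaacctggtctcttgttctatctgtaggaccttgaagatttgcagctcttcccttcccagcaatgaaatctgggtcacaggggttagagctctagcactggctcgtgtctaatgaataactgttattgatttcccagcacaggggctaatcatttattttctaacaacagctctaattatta
Crp, chr1:172697806-172698055, plus strand: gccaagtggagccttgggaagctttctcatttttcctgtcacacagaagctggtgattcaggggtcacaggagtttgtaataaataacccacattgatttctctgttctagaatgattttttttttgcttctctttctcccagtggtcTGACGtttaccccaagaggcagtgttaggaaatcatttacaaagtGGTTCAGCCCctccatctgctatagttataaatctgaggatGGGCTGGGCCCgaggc
Saa1, chr7:46742981-46743230, minus strand: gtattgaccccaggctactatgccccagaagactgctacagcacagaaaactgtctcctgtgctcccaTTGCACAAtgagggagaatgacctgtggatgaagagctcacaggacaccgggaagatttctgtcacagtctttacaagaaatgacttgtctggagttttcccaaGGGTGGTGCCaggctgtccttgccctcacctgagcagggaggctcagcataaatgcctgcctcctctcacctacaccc
Saa4, chr7:46732604-46732853, minus strand: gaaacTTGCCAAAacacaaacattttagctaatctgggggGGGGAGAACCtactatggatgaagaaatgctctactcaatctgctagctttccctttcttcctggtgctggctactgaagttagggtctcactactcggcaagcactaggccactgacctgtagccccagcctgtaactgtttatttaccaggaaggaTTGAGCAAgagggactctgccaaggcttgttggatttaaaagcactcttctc
The Apcs stretch held a single match, to the STAT3 letters, 244 to 236 bases before the start, and such a match occurred in 7.04% of 32536 distinct promoter stretches of the same length. Crp held the CRE core 102 bases before its start (17.9% of all stretches) and 3 matches to the NF-kB letters, 2 of them overlapping, a motif so loose that 46.0% of all stretches held it. Saa1 held C/EBP letters at 182 bases and NF-kB letters at 78 bases before the start. Saa4 held C/EBP letters at 245 and 52 bases and NF-kB letters at 210 bases. RefSeq stretches were found for 8 of the 10 genes, and 6 of these 8 held the C/EBP letters, against 9.57% of all stretches. Apcs and Crp were the 2 without them, and none of the 8 held the C/EBP-ATF site (3.4% of all). The Saa1 and Saa2 stretches were 94.8% identical over 251 aligned positions, and those of Apcs and Crp 48.7% over 298. These are matches of letters, and no binding was measured.

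Ranked per transcript length, in the FPKM values deposited with the counts, Hp was the most abundant of the 10 transcripts in both genotypes, and Apcs went from place 5 in the controls to place 2 in the knockouts. These FPKM were scaled by library size alone, without TMM, so genotype differences in FPKM and in CPM are not on the same scale. In Pcx f/f livers Hp, which encodes the hemoglobin-binding protein haptoglobin, averaged 2608 ± 206 FPKM (SD, n = 4). It was followed by Orm1 at 339 ± 47.4, Crp at 179 ± 24.6, Saa4 at 84.5 ± 16.3 and Apcs at 40.2 ± 14.1 FPKM. Below these came Saa1 at 26.7 ± 3.72, Saa2 at 8.79 ± 1.75, Saa3 at 7.83 ± 1.43, Orm2 at 5.27 ± 0.79 and Lcn2 at 3.71 ± 1.81 FPKM. Neighbours in this order overlapped in range across livers for Apcs and Saa1, for Saa2 and Saa3, and for Orm2 and Lcn2. Within livers, Apcs was above Saa1 and Orm2 above Lcn2 in 4 of 4 controls, and Saa2 above Saa3 in 3 of 4.
In Pcx L-/- livers Apcs averaged 338 ± 95.0 FPKM and stood behind Hp alone, at 2597 ± 82.9 FPKM. Its range overlapped that of Orm1 (268 ± 59.7 FPKM), which it exceeded in 3 of 4 knockout livers. Among all 13168 genes tested, the mean FPKM of Apcs ranked 1289 in the controls and 203 in the knockouts. The remaining order was Crp at 116 ± 14.96, Saa4 at 28.4 ± 15.6, Saa1 at 16.4 ± 5.18, Lcn2 at 14.7 ± 7.83, Orm2 at 6.43 ± 4.29, Saa3 at 5.46 ± 3.96 and Saa2 at 4.51 ± 2.13 FPKM. From Saa4 downward every neighbouring pair overlapped in range in the knockouts.

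**Figure D1:**
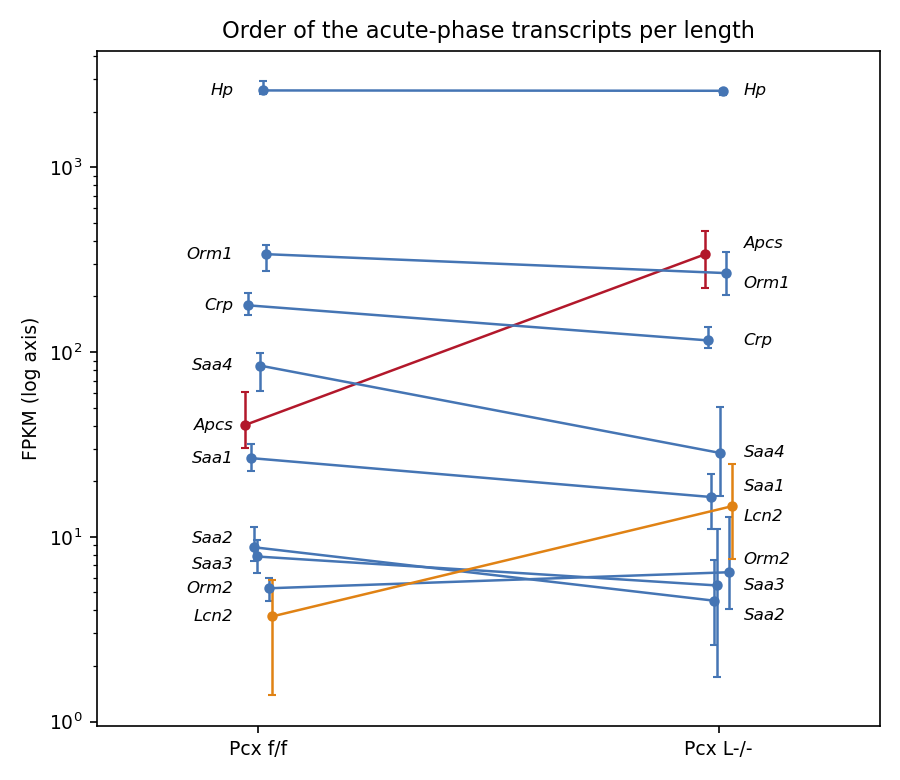
Mean FPKM of the 10 genes (log axis, scaled by library size without TMM) in Pcx f/f and Pcx L-/- livers, with bars from the lowest to the highest of 4 livers and points shifted sideways for legibility. Apcs (red) moves from 40.2 to 338 FPKM and Lcn2 (orange) from 3.71 to 14.7 FPKM, while the steepest downward line is that of Saa4.

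The 2 pentraxins had opposite genotype values. Apcs encodes serum amyloid P component, a calcium-dependent ligand binder that coats amyloid fibrils, chromatin and some microbes. It was at 35.0, 63.7, 38.9 and 35.7 CPM in Pcx f/f replicates 1 to 4 and at 226.5, 271.5, 301.4 and 392.6 CPM in Pcx L-/- replicates 1 to 4. The lowest knockout lay well above the highest control, and the groups did not overlap. The mean was 6.88-fold that of the controls, a log2 fold change of 2.78 (SE 0.23), and 40 of the 13168 genes tested had a higher one. Crp encodes C-reactive protein, which binds phosphocholine on damaged membranes and bacteria and activates complement. Crp was at 291, 284.9, 384.2 and 389.8 CPM in the controls and at 240.8, 152.8, 167.5 and 159.7 CPM in the knockouts. The highest knockout, replicate 1, remained below the lowest control. The knockout mean was 53.4% of the control mean (log2 fold change -0.91, SE 0.18). Per length, the Apcs transcript was at 0.158 to 0.386 of the Crp level in the 4 control livers and at 1.63 to 4.25 times the Crp level in the 4 knockout livers. Per length, the order of the 2 pentraxins was thus inverted in every knockout. This ratio does not depend on how libraries were scaled, but it does depend on the gene lengths used. In CPM, without lengths, Apcs was at 0.94 of the Crp level in knockout replicate 1 and at 1.78 to 2.46 times it in the other knockouts. No 50-base stretch of the annotated Apcs transcripts occurred in any other annotated gene, and 0.442% of those of Crp did, so reads of the 2 pentraxins could be told apart.

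The 4 serum amyloid A genes, apolipoproteins of high-density lipoprotein, had lower means in the knockouts, and the constitutive member Saa4 had the lowest ratio. Saa4 was at 201.6, 181.7, 215.7 and 149.1 CPM in Pcx f/f and at 105.3, 32.2, 48.8 and 29.5 CPM in Pcx L-/-, with no overlap. Its knockout mean was 28.8% of the control mean (log2 fold change -1.80, SE 0.35). The 3 knockouts other than replicate 1 lay below 50 CPM, and without replicate 1 the log2 fold change was -2.35 (SE 0.20). Saa1 and Saa2 encode the inducible serum amyloid A of the mouse, which can rise steeply in inflammation. Saa1 was at 20.65, 16.7, 17.2 and 16.6 CPM in the controls and at 13.7, 5.71, 10.3 and 7.01 CPM in the knockouts (log2 fold change -0.96, SE 0.23). Saa2 was at 7.40, 5.11, 5.70 and 5.40 CPM in the controls and at 4.72, 1.84, 2.34 and 1.40 CPM in the knockouts (log2 fold change -1.20, SE 0.33). Neither gene overlapped between genotypes, although replicate 1 came close to the controls in both. The 2 genes cannot be separated fully by short reads, since 31.1% of the 50-base stretches of the annotated Saa1 transcripts also occur in Saa2. Their sum, which leaves aside to which of the 2 a read was assigned but lacks any shared reads that were not counted, was 23.7 ± 2.95 CPM in the controls and 11.75 ± 4.96 CPM in the knockouts, or 49.6% of control. Saa3, the form made mainly by macrophages and other extrahepatic cells, was at 4.72, 5.43, 3.67 and 4.499 CPM in the controls. In the knockouts Saa3 was at 6.06, 1.89, 2.24 and 0.818 CPM, resting on 14 to 109 reads a library over all 8 livers. Replicate 1 was above every control and the other 3 knockouts below every control, so the groups overlapped (log2 fold change -0.74, SE 0.45). Without replicate 1 the Saa3 value was -1.45 (SE 0.31). Of 11 macrophage and Kupffer cell markers, Cd68 alone was called, as higher (log2 fold change 0.86, adjusted p = 0.0289), and their summed level was 405 to 515 CPM in the knockouts and 355 to 500 CPM in the controls.

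Haptoglobin and the orosomucoids, abundant carriers in plasma, showed the smallest differences. Hp was at 3607, 3591, 3644 and 4707 CPM in the controls and at 3681, 3056, 3036 and 2928 CPM in the knockouts. Replicate 1 lay within the control range and the other 3 knockouts below it (log2 fold change -0.29, SE 0.16). This value depended on scaling, because with library size alone it was -0.0059. Orm1 encodes the acute-phase glycoprotein orosomucoid, which binds basic and neutral drugs and lipids. Orm1 was at 316.9, 225.0, 307.2 and 313.4 CPM in the controls and at 277.7, 178.7, 136.6 and 171.7 CPM in the knockouts (log2 fold change -0.60, SE 0.21). The groups overlapped through knockout replicate 1 and control replicate 2 alone. Orm2, a close relative, was at 4.93, 4.92, 3.93 and 4.20 CPM in the controls and at 10.3, 3.06, 2.75 and 2.86 CPM in the knockouts. Replicate 1 was above every control, while the other 3 knockouts were below every control. The log2 fold change of Orm2 was accordingly 0.06 (SE 0.40) with replicate 1 and -0.64 (SE 0.19) without it. Orm1 and Orm2 share 20.4% of their 50-base stretches, so reads of the more abundant Orm1 could have been assigned to Orm2. The sum of Orm1, Orm2 and Orm3 was 298 ± 44.5 CPM in the controls and 197 ± 65.0 CPM in the knockouts, 66.2% of control.

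Lcn2 was the other gene of the 10 with a higher level in every knockout. It encodes lipocalin 2, which sequesters bacterial siderophores and is made both by stressed hepatocytes and by neutrophils. Lcn2 was at 5.74, 8.49, 5.57 and 2.30 CPM in the controls and at 10.7, 20.1, 29.4 and 11.4 CPM in the knockouts. The groups did not overlap, and the mean was 3.24-fold that of the controls (log2 fold change 1.67, SE 0.38). The spread within the knockouts was wide, with replicates 2 and 3 above replicates 1 and 4. The knockout highest for Lcn2, replicate 3, was not the highest for Apcs, which was replicate 4. The neutrophil marker sum moved in the same direction, but not every marker did. Most of its reads were of Csf3r (269 in the knockouts and 156 in the controls) and Itgam (243 and 112). Elane (2 and 8 reads), Ltf (2 and 5), Ngp (1 and 2) and Mpo (0 and 1) went the other way on few reads. The summed level of 12 markers was 6.66 to 10.45 CPM in the knockouts and 4.05 to 6.44 CPM in the controls, none of the 3 that could be tested was called (2 had an unadjusted p under 0.05 in edgeR, and 0 were called by DESeq2), and Ly6g, a defining marker, had 0 reads in all 8 livers. Knockout replicate 1 was highest for that sum and lowest of the 4 for Lcn2. The part of neutrophils in the Lcn2 value was not tested.

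**Figure D2:**
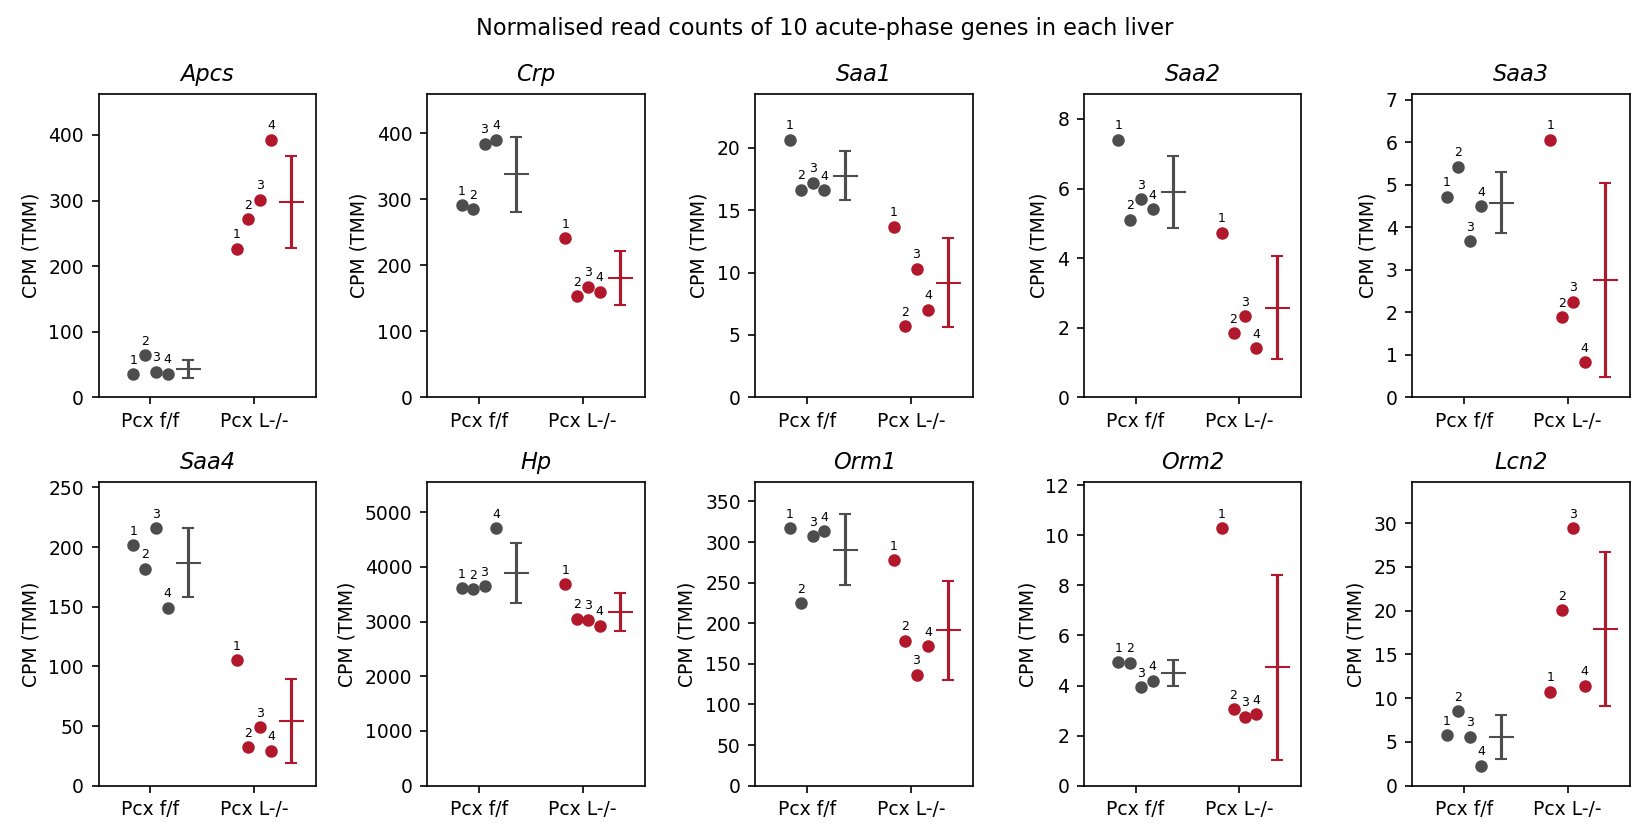
CPM of each gene in each liver (vertical axes from 0, one scale a gene), with replicate numbers above the points and the mean and SD of 4 livers at the right of each group. Knockout replicate 1 is the highest of the 4 knockouts in 8 of the 10 genes and the lowest in Apcs and Lcn2.

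Considered together, Apcs and Lcn2 were the 2 genes higher in all 4 knockouts, and no other gene of the 10 was. All 10 genes passed the filter on low counts. Of these, 7 had a log2 fold change below 0 and 3 above 0, with a median of -0.67, beside a median of -0.0050 over all 13168 genes tested. Of all genes tested, 27.6% passed a Benjamini-Hochberg adjusted p of 0.05 in edgeR, 14.1% as higher and 13.5% as lower. Of the 10 genes, 7 were past that threshold, 2 as higher and 5 as lower. The genotypes did not overlap for 6 of the 10, as was true of 27.6% of all genes tested. Because the genes were selected on this contrast, nothing is read from these counts. On the log2 scale, Apcs minus the mean of the other 9 genes was -0.50, 0.44, -0.26 and -0.27 in the controls and 2.22, 3.35, 3.27 and 4.09 in the knockouts. The mean of this difference was -0.15 ± 0.41 (SD, n = 4) in the controls and 3.23 ± 0.77 in the knockouts. The mean of the other 9 genes itself was 5.55 ± 0.08 in the controls and 4.96 ± 0.47 in the knockouts, with replicate 1, at 5.61, inside the control range and the other 3 below it.
Scaling moved the level of every gene but could hardly move this contrast, because a factor common to a library cancels when genes of that library are subtracted. With library size alone the median over all genes moved to 0.28, and Apcs was then at 3.07 and Crp at -0.63. Relative to that median the values were 2.79 for Apcs, -0.91 for Crp, -1.85 for Saa4, -0.29 for Hp, 0.0070 for Orm2 and 1.69 for Lcn2, close to the TMM values. Subtracting the median removes a shift common to all genes, so this closeness follows largely from the calculation. Over 17 alternatives Apcs ranged from 2.62 to 3.08 and Lcn2 from 1.33 to 1.96, while Saa4 ranged from -2.35 to -1.57 and Crp from -1.08 to -0.63.

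**Figure D3:**
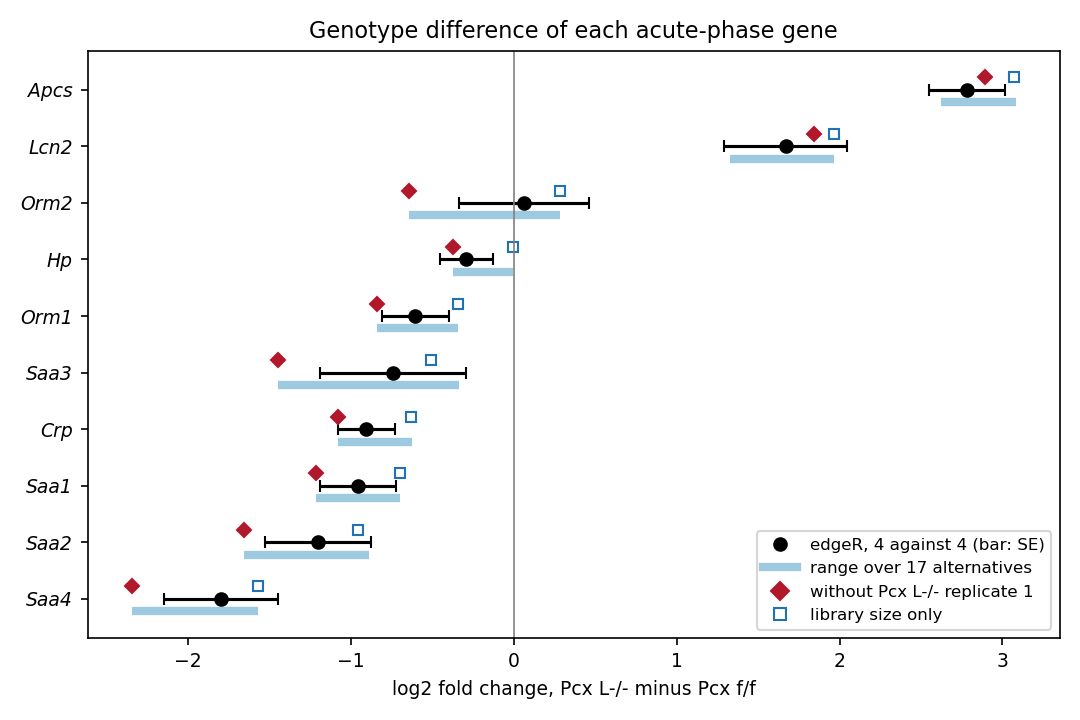
Log2 fold change of each gene, Pcx L-/- minus Pcx f/f, from edgeR with 4 livers a group (black, bars are SE), the range over 17 alternatives (light blue), the value without Pcx L-/- replicate 1 (red) and the value with library size alone (open squares). Apcs and Lcn2 stay above 0 throughout, Orm2 crosses 0, and the 7 others stay at or below 0.

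The knockout livers differed among themselves, and replicate 1 was the highest or the lowest of the 4 for each of the 10 genes. Replicate 1 had the lowest Apcs of the 4 knockouts, 226.5 CPM, and the highest Crp, Saa1, Saa2, Saa3, Saa4, Hp, Orm1 and Orm2. Replicate 4 had the highest Apcs, 392.6 CPM, and the lowest Saa2, Saa3, Saa4 and Hp, whereas replicate 2 had the lowest Crp and Saa1 and replicate 3 the lowest Orm1 and Orm2. Among replicates 2 to 4, Apcs was at 271.5, 301.4 and 392.6 CPM and Saa1 at 5.71, 10.3 and 7.01 CPM, so the 2 did not run opposite there. Replicate 1 was the knockout nearest to the control mean for all of the 10 genes except Orm2, and for Saa3 and Orm2 it lay above every control. It was also the liver with the most red blood cell RNA, and with the highest hepatocyte marker sum of the knockouts, 93967 CPM against 59858 to 69000 CPM. That sum was mostly Alb, a gene of the negative acute-phase list. The part of either in its acute-phase values was not tested. Without replicate 1, all 10 genes were past an adjusted p of 0.05, when 34.5% of all 13330 genes then tested were. Nothing is read from that count either, because the genes were selected on this contrast. The Apcs value without replicate 1 was 2.89 (SE 0.22). The mice carry numbers in 2 separate ranges in the labels, a lower one with 1 knockout and 2 controls and a higher one with 3 knockouts and 2 controls. Within the lower range, Apcs differed by 2.25 on the log2 scale, Crp by -0.26, Saa4 by -0.86 and Orm2 by 0.99. Within the higher range the differences were 3.08 for Apcs, -1.27 for Crp, -2.30 for Saa4 and -0.43 for Orm2. Apcs was higher and Crp and Saa4 lower in both ranges, whereas Saa3 (0.24 and -1.15), Orm1 (0.06 and -0.94), Hp (0.03 and -0.46) and Orm2 changed sign between them. The only knockout of the lower range is replicate 1, so the mouse and the range cannot be told apart.

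**Figure D4:**
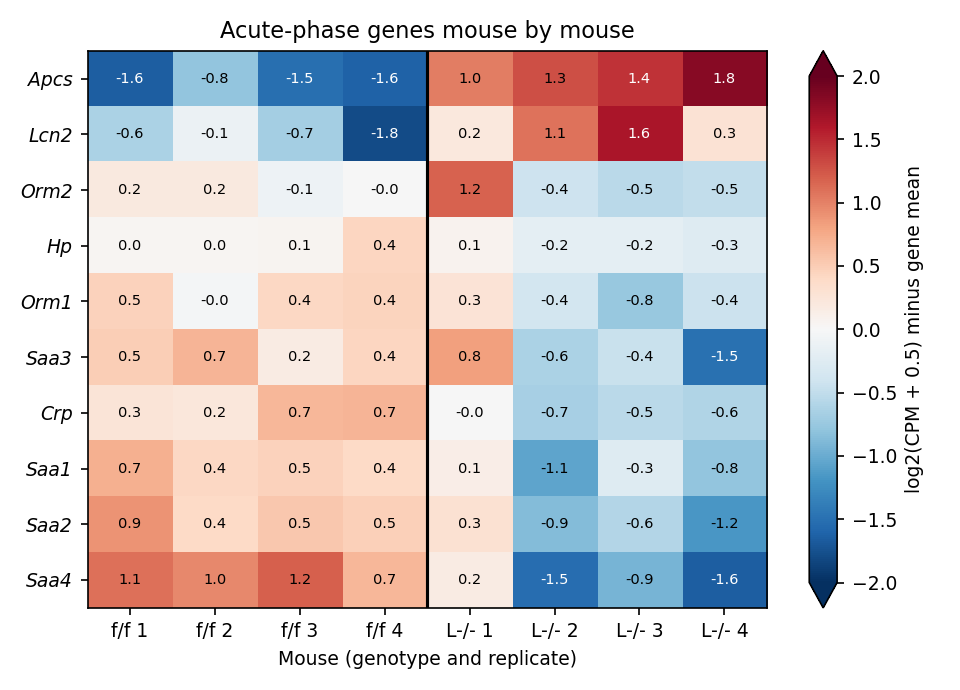
Log2(CPM + 0.5) of each gene minus its mean over the 8 livers, with controls at the left and knockouts at the right of the line and the value printed in each cell. Apcs is below its mean in all 4 controls and above it in all 4 knockouts, and the L-/- 1 column differs from the other 3 knockouts in most of the other rows.

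The genes outside the 10 whose pattern over the 8 livers was closest to that of Apcs were not acute-phase genes. Likeness was measured as the root mean square (RMS) difference of centred log2(CPM + 0.5). The 5 closest were Cgref1 (RMS 0.26), Nrip2 (0.29), Atf3 (0.34), Fibin (0.34) and Lrp11 (0.36). Atf3, a stress-induced transcription factor, was at 5.68 CPM in the knockouts and 0.694 CPM in the controls, and Cgref1 at 15.5 and 2.11 CPM. Among the 10 genes the nearest to Apcs was Lcn2, at an RMS of 0.81, and the farthest was Saa4, at 2.49. Saa1 was closest to Gm14327, Gcnt2, Tstd3, Aspg and Pfkm (RMS 0.105 to 0.125), and among the 10 to Saa2 (0.21) and Crp (0.28). Saa4 was closest to Rgn, Ugt2a3, Lrit1 and Cyp2c29 (RMS 0.16 to 0.22), with Saa2 the nearest of the 10 at 0.45. Rgn encodes regucalcin, and Ugt2a3 and Cyp2c29 are drug-metabolising enzymes of hepatocytes. The 8 livers share 2 genotypes, so a small RMS reflects mostly a genotype difference of similar size.

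Other positive acute-phase genes, from a list of 33 set apart from the 10, were mostly lower in the knockouts, and the higher ones were few. This list and the later ones were drawn up with earlier results of these data known, so their shares called are a description. Of 31 tested, 16 were lower, 4 were higher and 11 did not pass the test (edgeR, adjusted p under 0.05), with a median log2 fold change of -0.60, beside 27.6% called and a median of -0.0050 over all genes. Among those lower, the largest differences were in Serpina1e, an alpha-1-antitrypsin gene (4798 CPM in the controls and 1809 CPM in the knockouts, log2 fold change -1.41, SE 0.28, adjusted p = 0.00478), Serpina3n, an antichymotrypsin gene (-1.26, SE 0.21, adjusted p = 0.00234), and Itih3, an inter-alpha-trypsin inhibitor heavy chain (-0.96, SE 0.20, adjusted p = 0.00593). Serpina1e shares 34.6% of its 50-base stretches with its sister genes, so its own level is uncertain. Fgb, the fibrinogen beta chain, fell from 2716 to 1778 CPM (log2 fold change -0.61, adjusted p = 0.0212). Those that rose included Mt2 and Mt1, the metal-binding metallothioneins, from 118 to 328 CPM (log2 fold change 1.48, SE 0.20, adjusted p = 0.000971) and from 235 to 546 CPM (1.21, SE 0.30, adjusted p = 0.013). Hamp, which encodes the iron hormone hepcidin, was also higher (1.03, SE 0.33, adjusted p = 0.0368), but its call ended without any of 5 of the 8 mice, with adjusted p up to 0.09. That of Fgb ended without Pcx L-/- replicate 2, 3 or 4 (adjusted p up to 0.0816). Hpx, the heme-binding hemopexin and a companion of Hp, did not pass the test at 2724 CPM in the controls and 2733 CPM in the knockouts. Orm3 was at 2.71 and 1.21 CPM (log2 fold change -1.20, SE 0.48, adjusted p = 0.0843). It passed the test in 2 of 17 alternatives, among them that without Pcx L-/- replicate 1 (-1.85, SE 0.41, adjusted p = 0.00547). Without Pcx L-/- replicate 1, 19 of the 31 were lower and 4 higher. With library size alone 11 were lower and 5 higher. The median of the list relative to that of all genes was -0.60 under both scalings, as that subtraction removes a shift common to all genes.

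Negative acute-phase proteins, whose output declines when the positive ones rise in inflammation, were also lower where they were called. Of 12 tested, 5 were lower, 0 were higher (0 at an unadjusted p under 0.05 in edgeR and 0 in DESeq2) and 7 did not pass the test, with a median log2 fold change of -0.56. The share called was 41.7%, beside 27.6% of all genes. The 5 were Igf1 (log2 fold change -1.05, SE 0.26, adjusted p = 0.0133), Apoa1 (-1.04, SE 0.20, adjusted p = 0.004), Itih1 (-0.91, SE 0.21, adjusted p = 0.0102), Trf (-0.73, SE 0.25, adjusted p = 0.0461) and Fetub (-0.48, SE 0.12, adjusted p = 0.0147). These encode insulin-like growth factor, the main high-density lipoprotein protein, an inter-alpha-trypsin inhibitor chain, transferrin and fetuin-B. The call of Trf ended in 6 of the 8 fits without 1 mouse (adjusted p up to 0.13) and that of Fetub without Pcx L-/- replicate 3 (adjusted p = 0.0576), and 59.4% of the 50-base stretches of Trf also occur in overlapping annotated genes. Alb, albumin, was at 74725 CPM in the controls and 48302 CPM in the knockouts without overlap, and did not pass the test (log2 fold change -0.63, SE 0.22, adjusted p = 0.0532). Albumin passed it in 5 of 17 alternatives, among them that without Pcx L-/- replicate 1 (-0.75, SE 0.13, adjusted p = 0.00119). Without Pcx L-/- replicate 1, 9 of the 12 were lower. With library size alone 4 were lower and 3 higher. The list median relative to all genes was -0.55 under both scalings, again because a common shift is subtracted. The positive and negative lists thus had medians on the same side of 0. The 8 hepatocyte markers had a similar median, -0.57, so a median of this size was not particular to acute-phase genes. Alb, Ttr and Serpina1c are among both those markers and the genes of these lists.

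Transcripts of the cytokines that start the response were few in these livers. Over all 4 libraries of a genotype, Il6 had 2 reads in the knockouts and 2 in the controls, Tnf 19 and 5, and Osm 1 and 1. Lif had 14 and 0, and Il11 1 and 0. The interleukin-1 genes had more reads, with Il1a at 2.54 CPM in the knockouts and 2.77 CPM in the controls (199 and 172 reads, log2 fold change -0.15, SE 0.24, adjusted p = 0.691) and Il1b at 0.775 and 0.899 CPM (62 and 58 reads, -0.26, SE 0.37, adjusted p = 0.646). The extrahepatic pentraxin Ptx3 had 0 reads in all 8 libraries, which allows up to 3 in each. Of 17 tested genes of interleukin-6 family signaling through STAT3, 3 were lower, 0 were higher (2 at an unadjusted p under 0.05, and 1 in DESeq2) and 14 did not pass the test. This share called, 17.6%, was below the 27.6% of all genes. Il6ra, the interleukin-6 receptor alpha chain, fell from 109 to 54.9 CPM (log2 fold change -0.99, SE 0.15, adjusted p = 0.00136), a call kept under all 17 alternatives. Lifr, a receptor of leukemia inhibitory factor, was lower (-0.64, SE 0.13, adjusted p = 0.00627), a call that ended under both linear model (limma) fits to log2(FPKM + pseudocount). Il11ra1 was also lower (-0.35, SE 0.12, adjusted p = 0.048), but its call ended without any of 7 of the 8 mice, one at a time (adjusted p up to 0.14), and it shares 46.3% of its 50-base stretches with near copies. Il6st, the shared signal-transducing chain gp130, was at 213 and 204 CPM (log2 fold change -0.06, adjusted p = 0.826). Stat3 itself was at 137.5 CPM in the controls and 101 CPM in the knockouts (-0.45, SE 0.16, adjusted p = 0.0625). It passed the test in 4 of 17 alternatives, among them that without Pcx L-/- replicate 1 (-0.51, SE 0.17, adjusted p = 0.0341). Socs3, a STAT3 target that feeds back on the receptor, was at 6.56 and 8.72 CPM (0.40, SE 0.26, adjusted p = 0.28).
Of 28 tested genes of interleukin-1, TNF and NF-kB signaling, 6 were lower, 2 were higher and 20 did not pass the test. That is a share called of 28.6%, near the 27.6% of all genes. Il1r1, the interleukin-1 receptor, was lower (log2 fold change -0.85, SE 0.19, adjusted p = 0.00824), a call kept whichever mouse was left out that ended under both limma fits. Nfkbia, the NF-kB inhibitor and itself an NF-kB target, fell from 51.5 to 30.2 CPM (-0.77, SE 0.15, adjusted p = 0.0047). Tnfrsf1b was lower (-0.75, SE 0.22, adjusted p = 0.0279) and Tnfrsf1a higher (0.38, SE 0.11, adjusted p = 0.0234), 2 TNF receptors whose calls each ended in 4 of the 8 fits without 1 mouse (adjusted p up to 0.0882 and 0.0822). Nfkb2, a subunit of the noncanonical arm, was higher (0.55, SE 0.13, adjusted p = 0.00991). Neither Nfkb1 (0.04, adjusted p = 0.827) nor Rela (0.15, adjusted p = 0.358) passed the test. With library size alone, the counts were 7 higher and 2 lower in this list and 3 higher and 2 lower in the interleukin-6 list.

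Of 25 tested genes of transcription factors that act on acute-phase and pentraxin genes, 3 were lower, 2 were higher and 20 did not pass the test, a share called of 20% beside 27.6% of all genes. Cebpd was lower (log2 fold change -0.47, SE 0.15, adjusted p = 0.0425), as were the glucocorticoid receptor gene Nr3c1 (-0.51, SE 0.15, adjusted p = 0.0293) and Ppara (-0.52, SE 0.13, adjusted p = 0.0137). Cebpg (0.45, SE 0.12, adjusted p = 0.0198) and Atf6 (0.58, SE 0.19, adjusted p = 0.0427), a sensor of endoplasmic reticulum stress, were higher. Each of these 5 calls ended without at least 1 mouse (adjusted p up to 0.13 for Cebpd, 0.0968 for Nr3c1, 0.0534 for Ppara, 0.0586 for Cebpg and 0.12 for Atf6). Cebpa, Cebpb and Hnf4a, genes of main liver factors, did not pass the test. Cebpa was at 484 and 418 CPM (adjusted p = 0.298), Cebpb at 120 and 98.0 CPM (adjusted p = 0.264) and Hnf4a at 888 and 715 CPM (adjusted p = 0.216) in controls and knockouts. Creb3l3 encodes CREBH, a membrane-bound liver factor known to activate Apcs, Crp and Hamp after cleavage by site-1 and site-2 proteases. Creb3l3 was at 478 and 418 CPM (log2 fold change -0.19, SE 0.16, adjusted p = 0.414). It passed the test in 1 of 17 alternatives, that without Pcx L-/- replicate 1 (-0.36, SE 0.12, adjusted p = 0.0364). The cleaved factor was not measured. Of 8 genes in the list of CREBH targets and processing, 5 were higher and 1 lower, a share called of 75% beside 27.6% of all genes. The list was drawn up with earlier results of these data known, and nothing is read from that share. The study itself had already listed Fgf21, Cidec and Apoa4 among its changed transcripts. Fgf21, the fasting hormone, went from 1.81 to 35.0 CPM (log2 fold change 4.23, SE 0.52, adjusted p = 0.000735), Cidec, a lipid droplet protein, from 16.3 to 178 CPM (3.45, SE 0.22, adjusted p = 2.18e-05), and Apoa4 from 740 to 2939 CPM (1.99, SE 0.19, adjusted p = 0.000196). Hamp and Mbtps2, the site-2 protease (0.49, SE 0.14, adjusted p = 0.0268), were the others that were higher, and Apoa5 was lower (-0.69, SE 0.21, adjusted p = 0.0302). The calls of Mbtps2 and Apoa5 each ended in 6 of the 8 fits without 1 mouse (adjusted p up to 0.0829 and 0.1).

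Of 9 tested genes that handle the cargo of haptoglobin and lipocalin 2, 2 were lower and 7 did not pass the test, a share called of 22.2% beside 27.6% of all genes. Slc40a1, the iron exporter ferroportin, fell from 185 to 118 CPM (log2 fold change -0.65, SE 0.13, adjusted p = 0.00446). Lrp1, a receptor for hemopexin and other ligands, was lower (-0.94, SE 0.29, adjusted p = 0.0333), a call that ended in 6 of the 8 fits without 1 mouse (adjusted p up to 0.0989). Over all 7 lists, 36 of 128 tested genes were lower and 12 higher, a share called of 37.5% beside 27.6% of all genes. Because the lists were drawn up with earlier results of these data known, nothing is read from that share. With library size alone 21 were lower and 27 higher.

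**Figure D5:**
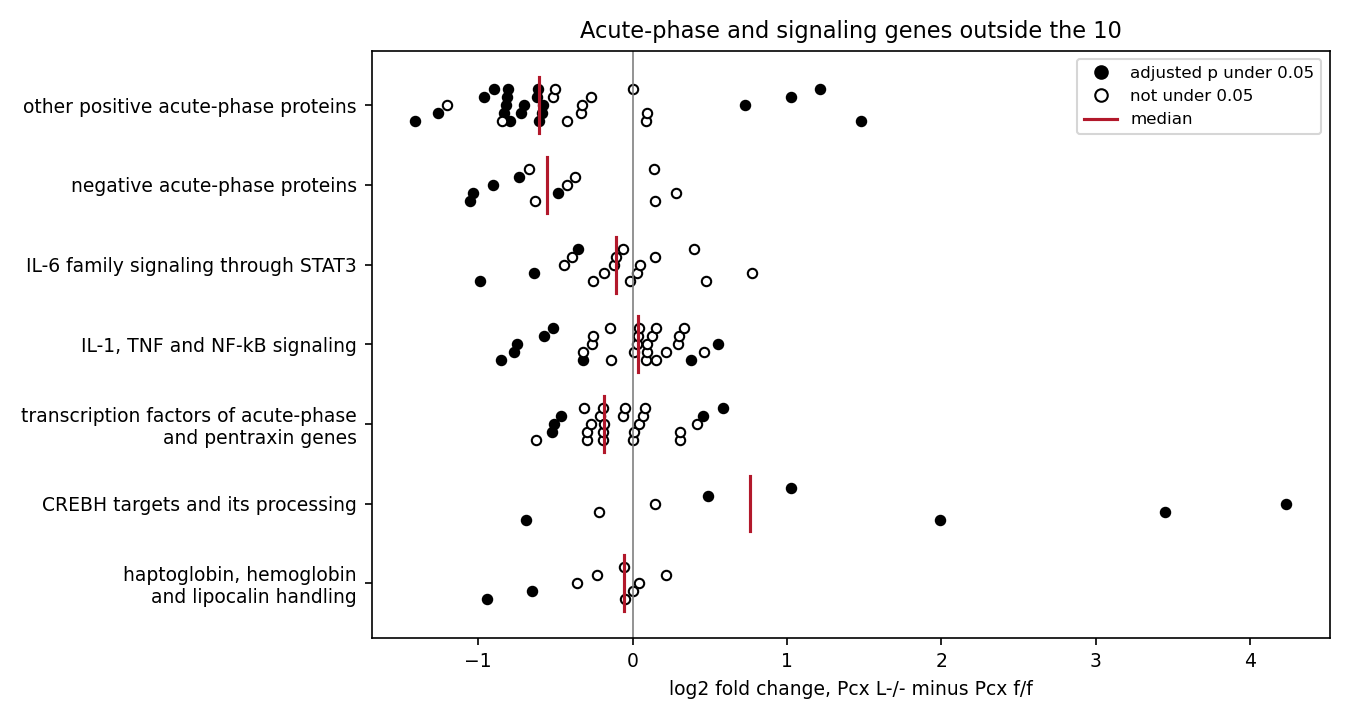
Log2 fold change, Pcx L-/- minus Pcx f/f, of each tested gene in 7 lists outside the 10 genes, filled where the adjusted p (edgeR, over all genes) was under 0.05, with red bars at the list medians. Other positive acute-phase proteins and negative acute-phase proteins both have medians below 0, at -0.60 and -0.56.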

How the data were processed

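Liver RNA of 8 mice was sequenced. Raw read counts per gene were deposited by the authors, with FPKM made by the authors from the same counts. The submitters' processing notes name STAR 2.5, HTSeq 0.6.1 and DESeq2, and the study gives the mm10 genome. The annotation release was not stated in the sources. The labels give separate mouse numbers. Symbols matched 34490 of 35275 IDs (97.8%).

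The 10 genes and all lists were chosen with earlier results of these data known. Counts were tested with edgeR 4.0.16 (TMM, quasi-likelihood, Pcx L-/- against Pcx f/f, 6 residual degrees of freedom) in R 4.3.3, after a filter on low counts (minimum count 10, total 15) that kept 13168 genes, and p-values were Benjamini-Hochberg adjusted over all of them at 0.05. SEs are those of the fitted log2 fold change. The fitting code was tested on simulated data. Every listed gene past the threshold was named where there were 6 or fewer in its list. Otherwise the 3 largest changes in each direction were named, and 18 signaling, transcription factor and plasma protein genes were named whatever their value, but some genes and results that these rules would name are not reported here. Likeness used a pseudocount of 0.5. Promoter stretches came from RefSeq (GRCm38.p6) and were aligned with Biopython, and transcript stretches came from GENCODE M21. Alternatives were DESeq2 size factors, library size only, no filter, DESeq2 1.42.0 with and without apeglm 1.24.0, limma 3.58.1 on log2(FPKM + 1) and log2(FPKM + 0.1), a replicate block, a term for the mouse number range, and leaving out each mouse. Depth limits the low genes most, since Saa3 had as few as 14 reads in a library, and intervals from counts would cover counting error only.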

Additional observations from a re-analysis of the deposited data

Results flagged for a closer look

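In 40 groups of 4 livers, covering the 10 genes, Apcs relative to the others and 9 marker sums in each genotype, 1 liver stood far from the other 3 in 8 groups, by the gap to its nearest neighbour as a share of the range of the group (Dixon's ratio, past its 95% critical value). Chance gives about 1 in 20 for a single group. These groups share livers, and some share genes, so they are not independent and their count cannot be set against that rate. Knockout replicate 1 was the highest of the Pcx L-/- livers for Crp (0.833), Hp (0.83), Orm2 (0.959) and the red blood cell marker sum (0.849). Among Pcx f/f livers, replicate 2 was high for Apcs (0.865, at 63.7 CPM) and low for Orm1 (0.895, at 225.0 CPM), replicate 1 was high for Saa1 (0.845, at 20.65 CPM), and replicate 4 was high for Hp (0.952, at 4707 CPM).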

How the results depend on the processing

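All 10 genes except Orm2 kept the sign of their log2 fold change under all 17 alternatives, and Orm2 kept it in 15. The fitted log2 fold change of Apcs minus the mean of those of the other 9 genes was 3.31 and ranged from 3.01 to 3.75. From the log2 values of each liver the same contrast was 3.38. With library size only, limma on log2(FPKM + 1) and limma on log2(FPKM + 0.1), genes called higher numbered 3915, 3822 and 3779 against 1855, and lower 870, 823 and 822 against 1777. Listed genes called higher were then 27, 26 and 26 against 12, and lower 21, 15 and 15 against 36, and Hp was at -0.0059, -0.0035 and -0.0035. These 3 settings leave out TMM scaling. Crp was -0.63 under both limma fits. Leaving out each mouse, genes called ranged from 2109 to 4602 (1156 to 2232 higher, 953 to 2370 lower), listed genes from 7 to 14 higher and 17 to 49 lower, the number of the 10 genes past the threshold from 5 to 10, Saa3 from -1.45 to -0.45 and Orm2 from -0.64 to 0.26. The highest counts, and the lowest Saa3 and Orm2 values, came without Pcx L-/- replicate 1, and the lowest counts without Pcx L-/- replicate 4. The number of genes called also moved by over 1.5 times without Pcx L-/- replicate 2 (2295), that of lower genes without Pcx L-/- replicates 2 (1043) and 3 (1097), and that of higher listed genes, to 7, without Pcx L-/- replicate 2, 3 or 4 or Pcx f/f replicate 1, and of lower listed genes, to 20 and 19, without Pcx L-/- replicates 2 and 3. The cause was not tested.

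The replicate numbers did not pair the mice, as the correlations of same-numbered deviations were 0.101, -0.131, -0.101 and -0.07. With a replicate block 2975 genes were called, 12 listed genes were higher and 28 lower, 7 of the 10 genes were past the threshold and Orm2 was at -0.14. Of 32 named genes outside the 10 that were past the threshold, 15 stayed so under all 17 alternatives and 17 whichever mouse was left out. Under both limma fits the calls of Trf, Fetub, Fgb, Lifr, Il11ra1, Il1r1, Tnfrsf1b, Cebpd, Nr3c1, Ppara, Apoa5 and Lrp1 ended, and with library size only these except Fgb, Lifr, Il1r1 and Apoa5. Depth limits Saa2, Saa3 and Orm2, each under 200 reads a library.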

Other observations

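The genes lying around the Saa, Orm, Lcn2 and Hp genes were compared between genotypes as well. These neighbours were chosen by position after the values of the 10 were seen. Their counts stand beside 27.6% called over all genes tested, and nothing is read from them. Within 100 kb of the Saa cluster, 2 of 5 were called by edgeR, Saal1 (log2 fold change 0.74, adjusted p = 0.0184) and Gtf2h1 (0.38, adjusted p = 0.0251), both higher. Beside the Orm genes Col27a1 was lower (-1.32, SE 0.27, adjusted p = 0.006) and the other 2 tested were not called. Near Lcn2, 2 of 7 were called, Ptges2 (0.35, adjusted p = 0.0201) and 1110008P14Rik (0.51, adjusted p = 0.0217), both higher. Near Hp, Txnl4b was higher (0.54, adjusted p = 0.0121) and Pkd1l3 lower (-0.90, adjusted p = 0.044) among 5 tested.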
